A study of Saccharomyces cerevisiae with 3 samples.

Results

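Iron uptake in budding yeast (Saccharomyces cerevisiae) was described here through 10 genes, of 5449 genes measured: FET3 and FTR1 of the reductive uptake system, the siderophore transporters SIT1, ARN1, ARN2 and ENB1, the cell wall proteins FIT1, FIT2 and FIT3, and TIS11, also known as CTH2, which acts on messenger RNAs when iron is short. They were taken as the S. cerevisiae probe sets whose gene symbol matched these names. Each of the 10 genes had a single probe set, so no choice between probe sets was needed. The arrays held total RNA of cells grown without further treatment in synthetic medium at 30 °C until stationary phase. There were 2 arrays labelled RPA12 deletion, called deletion-labelled below, and 1 array labelled wild type. For all 3 the labels name the haploid strain BY4741, of mating type MATa, which is his3Δ 1, leu2Δ 0, met15Δ 0 and ura3Δ 0, and by the labels the wild-type array shares these auxotrophies. The product of RPA12 is a subunit of RNA polymerase I, which makes ribosomal RNA. The growth protocol entered for the wild-type array also names cells lacking RPA12. Its genotype and description read wild type and were followed.

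Yeast takes up iron by 2 routes. Ferric iron is reduced at the cell surface and the ferrous iron is passed through a copper-dependent oxidase and a permease, while iron bound to siderophores, small chelators released by other microbes, is imported whole by a family of transporters. Mannoproteins of the cell wall help to hold siderophore iron near the membrane. When iron is scarce the transcription factor Aft1, with its paralog Aft2, activates the genes of both routes, and Tis11 binds and destabilises messenger RNAs of proteins that consume iron.

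The labels of these arrays are not settled by the targeted gene. RPA12 read 5.74 and 5.79 on the deletion-labelled arrays and 3.60 on the array labelled wild type, on the log2 scale, so its signal was higher where the gene is labelled absent. All directions given here compare the deletion-labelled arrays with the array labelled wild type, and this mismatch applies to each of them. Some marker genes of mating type and strain also set the groups apart. Of the 5 α-specific genes 4 rose, or 80% against 23.8% of all tested probe sets, although the labelled strain is an a strain. After quantile normalization again 3 of the 5 rose, where 925 of all 5498 tested probe sets did. MF(ALPHA)1, the α-factor gene, was at least 130-fold higher, from a wild-type value of 1.75 that is not above background. HMRA1, the silent copy of the gene that a cells express at MAT, read 1.25 and 1.09, not above background, against 7.41. It was at least 63.6-fold lower. HMRA1 is outside the a-specific list and was named after its values were seen, as a profile like that of TIS11. Of the 7 genes on the a-specific list 2 rose and 1 fell, or 28.6% and 14.3%. These shares are near the 23.8% and 10.2% of all tested probe sets. The 2 rises were under 2-fold after either other scaling of the arrays. MET17 is the MET15 gene of the labelled genotype. It read 9.43 and 9.36 on the deletion-labelled arrays, which goes against a deletion there. The wild-type value, 1.56, is not above background, so MET17 was at least 188-fold higher. LYS2, which the labels do not list as changed, read 1.42 and 0.97, not above background, against 6.08, at least 25.3-fold lower. HIS3 rose with a difference of 2.55. URA3 read 1.25 on all 3 arrays, not above background. LEU2 read 1.75 on both deletion-labelled arrays and 1.91 on the wild-type array, close above background, a difference of -0.16. Among array controls, the median difference was -3.75 over 42 probe sets of bacterial spike-in transcripts and -1.48 over 27 hybridization controls. These marker and control differences follow the same split of the arrays as the RPA12 label. With these 3 arrays the parts of RPA12, strain, mating type and array processing in the results below cannot be told apart. None of these parts was tested.

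Of the 10 iron genes, 8 (FET3, FTR1, SIT1, ARN1, ARN2, FIT2, FIT3 and TIS11) fell on the deletion-labelled arrays, and none rose. "Fell" and "rose" are used where the limma adjusted p was under 0.05 (Benjamini-Hochberg over all 5498 probe sets tested) and the difference was at least 2-fold between the mean of the 2 deletion-labelled arrays and the wild-type array. By that rule 10.2% of all tested probe sets fell and 23.8% rose. The median difference of the 10 genes was -2.99 on the log2 scale, against 0.19 over all tested probe sets. Of the 8, 7 fell at least 4-fold and none of the 10 rose that far, against 3.53% and 8.57% of all tested probe sets. By limma's adjusted p with no size required, 9 of the 10 genes were lower and ENB1 was higher, against 29.7% and 50.4% of all tested probe sets. All 10 genes lay above the background level on every array. That level, 1.42 on each deletion-labelled array and 1.84 on the wild-type array, is the value under which 95% of 1746 probe sets for another yeast species lay. A lower array value does not tell less RNA per cell from fewer cells that make it.

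**Figure D1:**
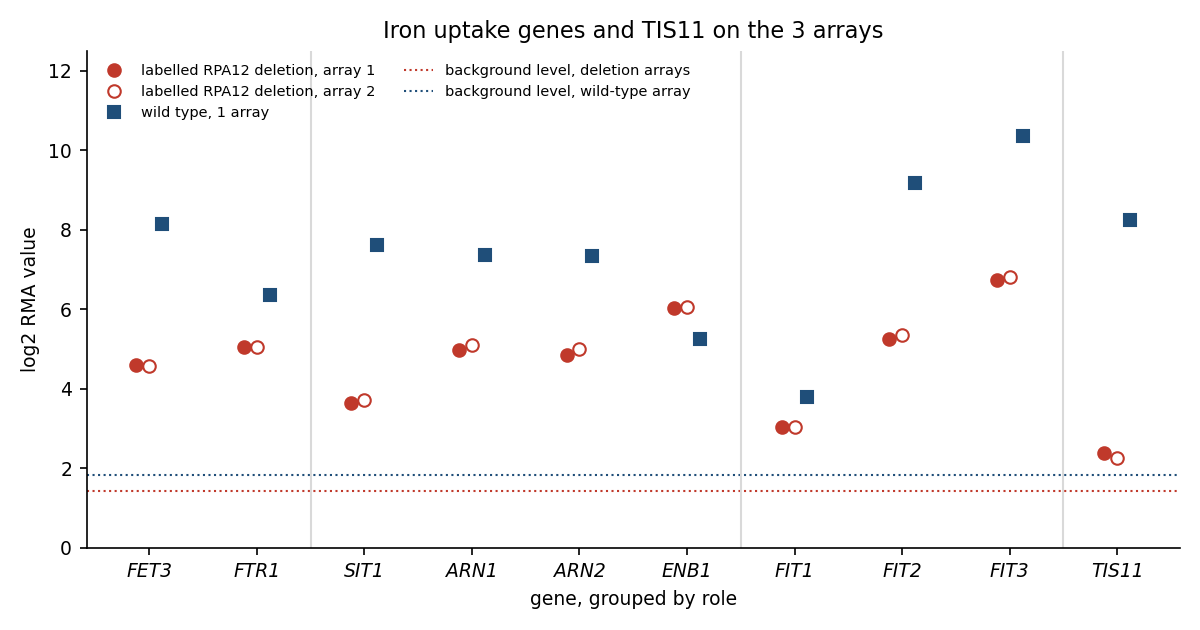
Log2 RMA value (y axis) of each of the 10 genes (x axis, grouped by role) on the 2 deletion-labelled arrays (red) and the wild-type array (blue squares), with the background levels dotted. The wild-type square lies above both red points for 9 genes, from 3.78 in FIT1 to 10.35 in FIT3, and below them for ENB1.

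TIS11 had the largest difference of the 10. It read 2.38 and 2.26 on the deletion-labelled arrays and 8.25 on the wild-type array. Both of the former lie close above background, and the wild-type value lies far above it. The gene, a CCCH zinc finger protein that promotes decay of messenger RNAs holding AU-rich elements, fell 60.9-fold (difference -5.93 ± 0.097 SE, limma adjusted p = 0.00708). Ranked from the lowest, its difference was number 3 of 5498 tested probe sets. CTH1, its paralog, read 5.20 on both deletion-labelled arrays against 5.09 and so differed by 0.11, under 2-fold and below 0 after either other scaling. Among genes outside the 10, the profiles over the 3 arrays most like that of TIS11 were those of HMRA1, NCA3 and GRE1, with Euclidean distances of 0.25, 0.27 and 0.28 on the log2 scale after centring each profile on its own mean. HMRA1 is not above background on the deletion-labelled arrays, so its distance is not exact. With only 3 arrays, this likeness is little more than a difference of the same size.

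The reductive uptake pair fell by unequal amounts. FET3, the multicopper oxidase that turns ferrous into ferric iron during uptake, read 4.61 and 4.58 on the deletion-labelled arrays and 8.15 on the wild-type array. Both were far below the wild type, and FET3 fell 11.8-fold (difference -3.56 ± 0.019 SE, limma adjusted p = 0.00199). FTR1, the permease that forms a complex with Fet3, read 5.05 on both deletion-labelled arrays and 6.35 on the wild-type array. FTR1 fell 2.47-fold (difference -1.30, limma adjusted p = 9.15e-05). The difference of FET3 minus that of FTR1 was -2.25, while the SD between the deletion-labelled arrays was 0.017 for FET3 and 0 for FTR1. The FTR1 value is the same to every deposited digit on these 2 arrays, so its SE of 0.00014 reflects that tie and not a measured spread.

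Among the siderophore transporters, 3 fell and ENB1 differed in the other direction by under 2-fold. SIT1, also known as ARN3, which imports ferrioxamine iron, read 3.65 and 3.71 against 7.60 on the wild-type array. SIT1 fell 15.2-fold (difference -3.92 ± 0.047 SE, limma adjusted p = 0.00516), the largest fall of the 4 transporters. ARN1, a transporter of ferrichrome-type siderophores, read 4.97 and 5.11 against 7.35. ARN2, also known as TAF1, which imports triacetylfusarinine iron, read 4.86 and 4.99 against 7.34. ARN1 fell 4.97-fold and ARN2 5.35-fold, with differences of -2.31 ± 0.099 and -2.42 ± 0.10 (SE) and limma adjusted p of 0.0184 and 0.0179. The fitted 95% intervals of these 2 differences, -3.06 to -1.57 for ARN1 and -3.18 to -1.66 for ARN2, overlap widely. Both genes lie near the same end of chromosome VIII, with 6 protein-coding genes between them in the RefSeq gene order. ENB1, also known as ARN4, the transporter of enterobactin iron, read 6.04 and 6.06 against 5.26, so both deletion-labelled arrays lay above the wild type. Its difference of 0.79 (95% interval 0.67 to 0.91, limma adjusted p = 0.00899) is 1.73-fold and did not reach the size required. The 4 proteins belong to a single family. How far their probes cross-hybridise was not tested.

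The cell wall genes had 2 large falls and a smaller difference. FIT2 read 5.25 and 5.34 on the deletion-labelled arrays and 9.18 on the wild-type array. FIT3 read 6.74 and 6.80 against 10.35. In both genes the wild-type value lay far above the others. FIT2 fell 14.8-fold and FIT3 11.96-fold, with differences of -3.89 ± 0.067 and -3.58 ± 0.046 (SE) and limma adjusted p of 0.00743 and 0.00553. FIT1, the third of these glycosylphosphatidylinositol-anchored mannoproteins, read 3.04 on both deletion-labelled arrays and 3.78 on the wild-type array. Its difference of -0.74 is 1.67-fold, below the size required, though it was -1.50 and past both thresholds after quantile normalization again (limma adjusted p = 0.00207). FIT1 is tied on the deletion-labelled arrays, so the fit gives it no usable error.

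**Figure D2:**
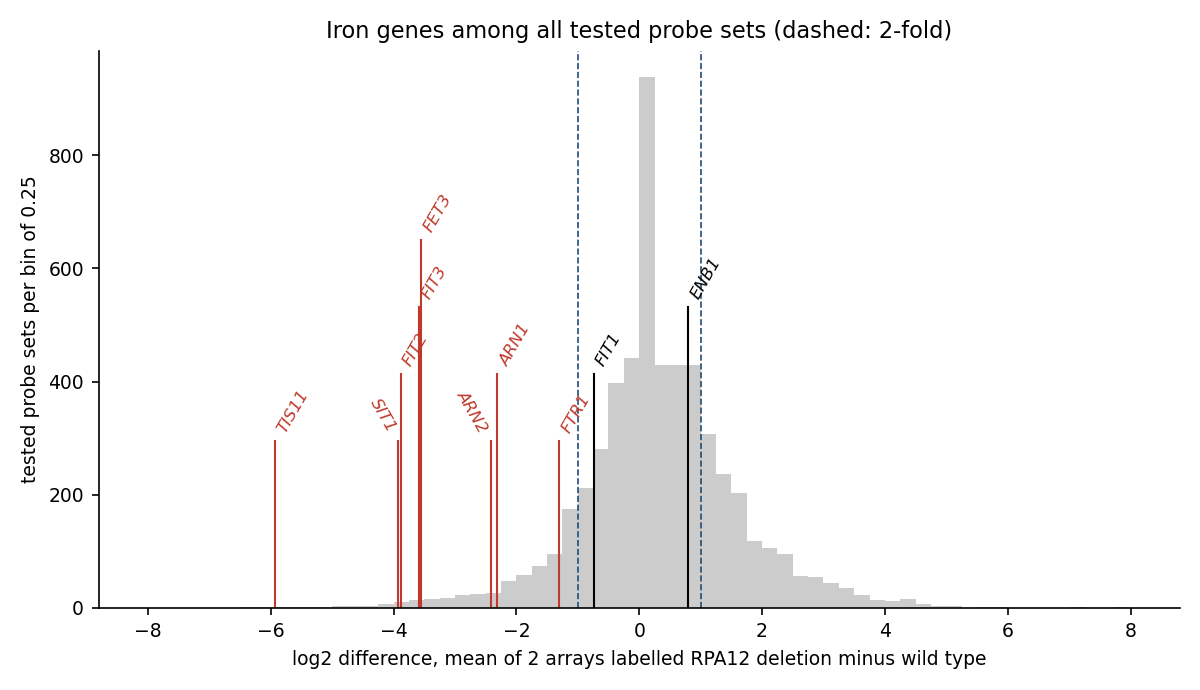
Histogram of the log2 difference (x axis) of all 5498 tested probe sets (y axis, number per bin of 0.25), with the 10 iron genes as vertical lines, red where the gene fell and black where it was not called; line heights carry no value. TIS11 lies at -5.93, 4 genes lie between -3.92 and -3.56, and ENB1 at 0.79 is the only line above 0.

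The 10 genes differed little between the 2 deletion-labelled arrays. The second array was higher than the first for 6 genes, lower for 2 and equal for 2, with a largest gap of 0.13. Across all tested probe sets the difference between these arrays had an SD of 0.081, and that of their mean from the wild type an SD of 1.28. Exact ties were common. On the 2 deletion-labelled arrays, 44.2% of tested probe sets had equal values, and 7.89% were equal on all 3 arrays. Values were also shared between different probe sets, 65.7% and 65.9% of them on the deletion-labelled arrays and 23.7% on the wild-type array. The value of FIT1 on the first deletion-labelled array, for example, was that of 23 other tested probe sets. Where a gene is equal on both deletion-labelled arrays, its small limma p, here and below, reflects that tie and not a measured spread. The cause of these ties was not tested.

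Neighbouring genes did not share a direction with the 10. FIT2 and FIT3 are adjacent, and the stretch of 5 protein-coding genes from FRE3 to FRE5 on chromosome XV holds them both. FRE3, a ferric reductase at its start, differed by 0.63 (-0.08 after quantile normalization again), and FRE5, another at its end, was not above background on the deletion-labelled arrays, at 0.97 on both against 2.64, at least 2.33-fold lower. YOR381W-A, between FRE3 and FIT2, was not above background on any array. Of the 13 tested neighbours of the 10 genes that are not themselves among them, 3 fell, 4 rose and 6 were not called. Over all tested probe sets 10.2% fell and 23.8% rose. The median difference of the 13 was 0.00. Neither neighbour of ENB1 was tested. STL1, a glycerol transporter next to FIT1, read 2.42 and 1.92 against 7.34 and fell, and HSP31, on the other side of FIT1, read 9.32 and 9.30 against 7.68 and rose. These neighbours and FRE3 were named for their position after their values were seen.

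The other genes that Aft1 and Aft2 are known to regulate showed no common direction. Of 17 such genes 2 fell and 3 rose, that is 11.8% and 17.6% against 10.2% and 23.8% of all tested probe sets, with a median difference of 0.00. ISU2, a scaffold for iron-sulphur cluster assembly, read 6.74 and 6.80 against 3.68 and rose 8.52-fold (limma adjusted p = 0.00668), while its paralog ISU1, named as its counterpart, read 9.14 on all 3 arrays. FRE5 and CCC2, the copper pump that loads Fet3, were the 2 that fell. CCC2 read 4.61 and 4.53 against 6.16 and fell 3.01-fold (limma adjusted p = 0.0159). ATX1, the copper chaperone that delivers to Ccc2, read 8.30 and 8.29 against 6.99 and rose 2.47-fold (limma adjusted p = 0.00194). HMX1, the heme oxygenase, which was named after its values were seen, read 2.64 and 2.98 against 4.64, a difference of -1.84 that did not pass (limma adjusted p = 0.0642). HMX1 did pass both thresholds at -2.34 after quantile normalization again and at -2.09 after median centring. With quantile normalization again or median centring, 4 of these 17 genes fell and 2 rose. Of all 5498 tested probe sets, 837 fell and 925 rose with the former scaling, and 813 fell and 1032 rose with the latter.

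Ferric reductases, which supply ferrous iron to Fet3 and Ftr1 or act in the vacuole, were mostly under 2-fold apart. Of 8, FRE5 fell, FRE2 rose and 6 were not called, with a median difference of 0.03 that became negative under both other scalings. Of all tested probe sets, 10.2% fell and 23.8% rose. FRE2, a surface reductase of siderophore iron, read 3.72 on both deletion-labelled arrays and 2.49 on the wild-type array, 2.36-fold higher (limma adjusted p = 9.15e-05). Its difference of 1.24 was 0.37 after quantile normalization again and 0.99 after median centring, each under 2-fold.

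Copper supply genes, on which Fet3 depends, went in both directions. Of 6, ATX1 and MAC1 rose, CCC2 fell and 3 were not called (median -0.33). That is 33.3% rising and 16.7% falling, against 23.8% and 10.2% of all tested probe sets. MAC1, the copper-sensing transcription factor, read 5.15 and 5.13 on the deletion-labelled arrays and 1.61 on the wild-type array, which is not above background. It was at least 9.83-fold higher (limma adjusted p = 8.75e-04). CTR1, the copper importer of the cell surface, read 5.81 and 5.83 against 6.75, a difference of -0.93 under 2-fold, which passed both thresholds under either other scaling. CTR2, the vacuolar copper exporter, differed by -0.60 and CTR3, a second importer, by -0.06.

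Regulators of iron genes included a fall in AFT1. AFT1, the main activator of the iron regulon, read 3.998 and 4.14 on the deletion-labelled arrays and 5.85 on the wild-type array. It fell 3.44-fold (difference -1.78, limma adjusted p = 0.0259). AFT2, its paralog, was at 4.32 on both arrays against 3.92 and differed by 0.40, but by -0.35 after quantile normalization again. GRX4, a monothiol glutaredoxin that with Grx3 restrains Aft1 when iron is plentiful, read 7.95 and 7.87 against 6.32 and rose 3.01-fold (limma adjusted p = 0.0164). GRX3 itself differed by 0.27. FRA1 and BOL2, also known as FRA2, whose proteins act with these glutaredoxins, differed by 0.50 and 0.61, and YAP5, an activator under high iron, by 0.44. Of the 8 regulators 1 fell and 1 rose, while 10.2% of all tested probe sets fell and 23.8% rose. The median difference of the 8 regulators was 0.42, and it was 0.10 after quantile normalization again and 0.17 after median centring.

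Transporters of iron outside the high-affinity systems gave 3 rises and no fall among 11. The share rising, 27.3%, was close to the 23.8% of all tested probe sets, of which 10.2% fell. Their median difference of 0.06 became negative under both other scalings. MMT1, a mitochondrial metal carrier, read 5.28 and 5.23 against 2.28 and rose 7.89-fold (limma adjusted p = 0.00550). CCC1, which moves iron into the vacuole, read 7.53 and 7.59 against 6.56, a difference of 1.00 at the 2-fold limit (limma adjusted p = 0.0169). SMF1, a metal ion transporter of the plasma membrane, differed by 1.00 as well (limma adjusted p = 0.0126). The differences of CCC1 and SMF1 were 0.88 and 0.64 after quantile normalization again and 0.98 for each without the second deletion-labelled array, all under 2-fold.

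Genes of iron-sulphur cluster assembly were higher more often than lower. Of 23, 10 rose and none fell, or 43.5% rising against 23.8% of all tested probe sets, with a median difference of 0.90, and 7 rose under each of the other scalings. YAH1, the mitochondrial ferredoxin, read 7.49 and 7.58 against 4.203 and rose 10.1-fold (limma adjusted p = 0.00786). DRE2 rose 6.19-fold and ERV1 5.63-fold (limma adjusted p of 0.00140 and 0.00420), and ISU2 is described above. Heme genes gave 3 rises and 1 fall among 9 (33.3% and 11.1%, against 23.8% and 10.2% of all tested probe sets), with a median of 0.20. Under each of the other scalings 2 of the 9 rose and 3 fell, beside the counts over all tested probe sets given above, with medians of 0.02 and -0.05. HEM4, of heme synthesis, read 5.23 on both arrays, to 2 decimals, against 2.45 and rose 6.85-fold, HEM13 rose 3.22-fold and HEM1, of the first step, fell 2.96-fold. HEM3 rose 2.04-fold, but its difference of 1.03 was 0.14 after quantile normalization again and 0.99 without the first deletion-labelled array. The limma adjusted p of these 4 heme genes lay between 9.15e-05 and 0.0280. The lowest was that of HEM13, which is tied on the deletion-labelled arrays.

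**Figure D3:**
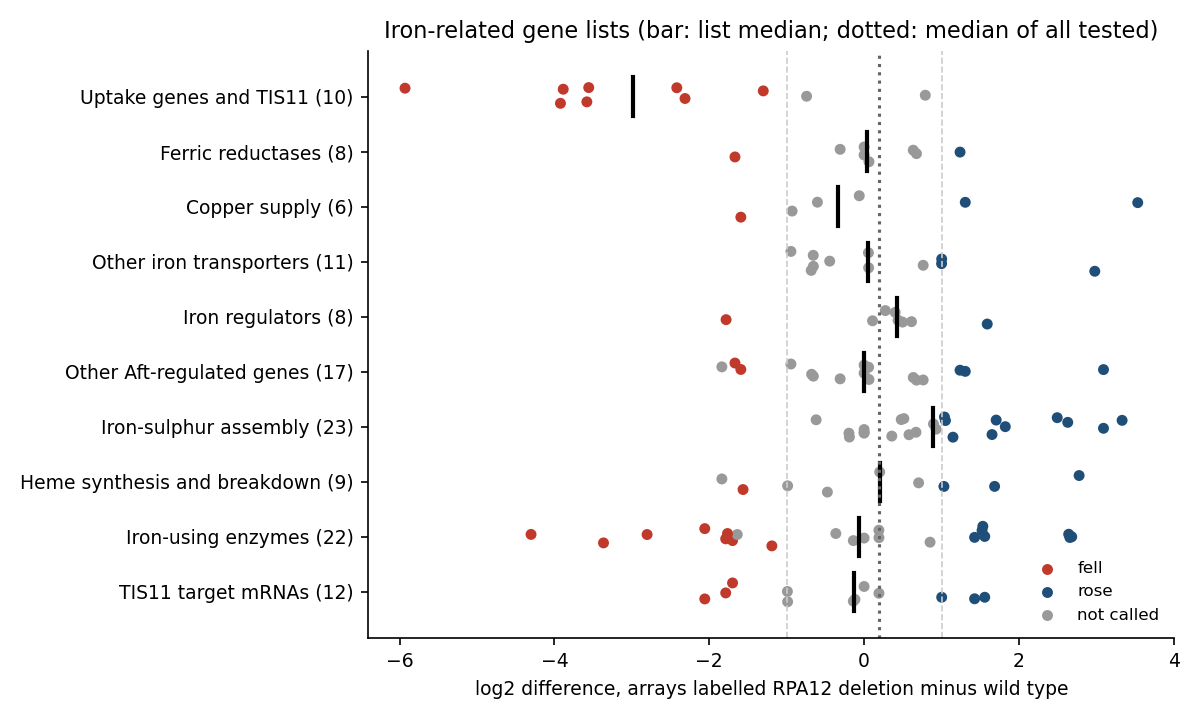
Log2 difference (x axis) of each gene in 10 lists (y axis, number of genes in brackets), coloured by whether it fell, rose or was not called, with a bar at each list's median and a dotted line at 0.19, the median of all tested probe sets. The uptake genes and TIS11 have their median at -2.99, and the other medians lie between -0.33 and 0.90.

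Genes grouped here as iron-using moved in both directions. Of 22, 8 fell and 7 rose, or 36.4% and 31.8% against 10.2% and 23.8% of all tested probe sets, with a median difference of -0.07. OLE1, the fatty acid desaturase, read 5.61 and 5.68 against 9.95 and fell 19.7-fold (limma adjusted p = 0.00550). CTA1, the peroxisomal catalase, fell 10.3-fold and CTT1, the cytosolic catalase, 6.98-fold (limma adjusted p of 0.0272 and 9.15e-05). CTT1 read 6.72 on both deletion-labelled arrays, so its smaller p reflects a tie and not stronger evidence. ILV3, an enzyme of branched-chain amino acid synthesis with an iron-sulphur cluster, read 8.72 and 8.75 against 6.06 and rose 6.41-fold (limma adjusted p = 0.00344). Among 12 genes whose messenger RNAs Tis11 is known to lower, 3 fell and 3 rose, or 25% each against 10.2% and 23.8% of all tested probe sets, with a median difference of -0.13. BIO2, biotin synthase, read 4.29 and 4.55 against 6.48 and fell 4.16-fold (limma adjusted p = 0.0429). ACO1, aconitase, and SDH2, of succinate dehydrogenase, fell 3.45-fold and 3.25-fold (limma adjusted p of 0.0112 and 0.00424). LIP5, lipoic acid synthase, read 6.30 on both arrays against 4.74 and rose 2.94-fold (limma adjusted p = 9.15e-05). Under each of the other scalings 5 of the 12 fell and 2 rose. Of all 5498 tested probe sets, 837 fell and 925 rose after quantile normalization again. After median centring 813 of them fell and 1032 rose.

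Over the 91 iron-related genes of these lists that are not among the 10, 12 fell and 27 rose, which is 13.2% and 29.7% against 10.2% and 23.8% of all tested probe sets. Their median difference was 0.19, as over all tested probe sets. The balance of higher against lower depends on scaling. Of all differences of at least 2-fold, 69.0% were higher as deposited, 52.4% after quantile normalization again and 55.9% after median centring. Those scalings moved the median of all tested probe sets by -0.26 and -0.25.

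The falls of the 8 genes held in size under the other scalings and with either deletion-labelled array left out. The dim filter, the intensity trend and values raised to background could not change these differences. Median centring moved every difference by the same -0.25, so it could not undo a fall. The 2 deletion-labelled arrays differed by at most 0.13 in any of the 10 genes, so leaving out either could change little. The single wild-type array stayed in every setting, so its own variation was not tested. FET3 ranged from -3.83 to -3.54, SIT1 from -4.31 to -3.89, FIT2 from -4.14 to -3.84, FIT3 from -3.83 to -3.55 and TIS11 from -6.18 to -5.86. FTR1 ranged from -1.55 to -1.30, ARN1 from -2.56 to -2.25 and ARN2 from -2.67 to -2.35. ENB1 stayed above 0, between 0.54 and 0.80, and was under 2-fold in all of them.

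**Figure D4:**
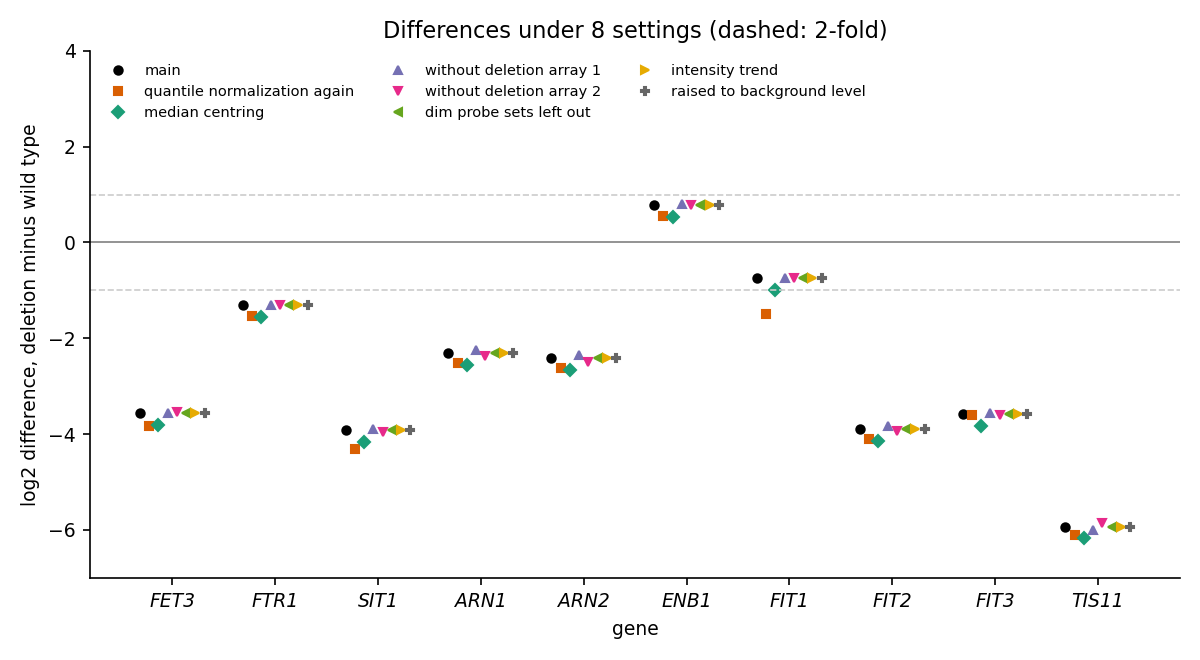
Log2 difference (y axis) of the 10 genes (x axis) under 8 settings (symbols), with dashed lines at 2-fold. FIT1 is the gene that crosses the 2-fold line, from -0.74 as deposited to -1.50 after quantile normalization again, and no gene changes sign. The dim filter, the intensity trend and values raised to background repeat the deposited differences, which they could not change.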

How the data were processed

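Total RNA (6 µg) was hybridised as biotinylated cRNA to single-colour Affymetrix arrays, per the labels' protocols. The deposited values are log2 RMA summaries made by the authors, who also name Affymetrix Expression Console, per the submitters' processing notes. Not given in the sources used here are versions and the arrays of each RMA run. Of 10928 probe sets, 5498 with a single S. cerevisiae symbol were tested, and 12 symbols were updated through the RefSeq gene table (R64), used only for names and gene order. The number of arrays limits the precision.

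Differences were tested with limma 3.58.1 in R 4.3.3, by its two-sided moderated test (lmFit, eBayes). With 1 residual degree of freedom, the lone wild-type array is assumed to vary like the 2 others. No label places those in separate cultures, so the p-values cover the spread of these samples alone, and it may be technical. The code was tested on simulated data. Because ties make tiny spreads, at least 2-fold was also required. Members, lists and rules were chosen with earlier results of these data known. Named are the 10 members, the targeted gene, up to 4 called genes of each list with the largest differences, and all genes of the copper and regulator lists. The genes whose profiles were most like that of TIS11 are named too. Lists overlap. Alternatives were other scalings, arrays left out, a dim filter, an intensity trend, values raised to background and other call rules. Promoter and protein sequences were not analysed here.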

Additional observations from a re-analysis of the deposited data

How the results depend on the processing

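All 8 falls kept their direction and their side of the threshold under quantile normalization again and median centring. Median centring moved every difference by the same -0.25 and could not undo a fall. The filter on dim probe sets and values raised to background could not change the differences of the 8, as all 10 genes lie above background on every array. The same wild-type array was used in every setting. An intensity trend changes only the error. Under these settings the limma adjusted p of the 8 stayed under 0.05. With a single deletion-labelled array there is no test, and the 8 stayed at least 2-fold lower. FIT1 passed at -1.50 after quantile normalization again and was -0.99 after median centring. By limma's adjusted p with no size, ENB1 was also called higher, so 1 of the 10 rose, and over all probe sets 1634 fell and 2773 rose, against 562 and 1310. At least 4-fold left 194 and 471, respectively. Of the 17 other Aft-regulated genes, 4 fell after quantile normalization again and 4 after median centring, 5 fell and 8 rose by adjusted p with no size, and 0 fell and 1 rose at 4-fold or more. Under each of those 2 scalings, no ferric reductase rose, 2 copper genes fell, 1 other iron transporter fell and 1 rose, and 3 heme genes fell. Heme genes at least 2-fold lower numbered 3 without the first deletion-labelled array and 2 without the second, as also at 2-fold with no test. Those counts use size alone, and over all tested probe sets they were 601, 609 and 603. Of the 12 Tis11 targets, 5 were at least 2-fold lower without the first array. No paired analysis was possible because there is a single wild-type array. Each of the 10 genes has 1 probe set, so no other probe set could be tried, and the promoter motif count and the protein comparison were not run.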
